A study of Mus musculus with 3 samples.

Results

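T cells sorted as CD4+ from the kidney and spleen of lupus-prone MRL/lpr mice were searched for transcripts of the CD8 coreceptor. Members were chosen by their measured Cd8 counts, a cell being a member if it held at least 1 UMI (unique molecular identifier, 1 counted transcript molecule) of Cd8a or of Cd8b1. Of 13337 cells kept, 615 were members. They comprised 270 of 4979 kidney cells and 345 of 8358 spleen cells. Cd8a alone was found in 57 members, Cd8b1 alone in 355 and both transcripts in 203. By organ, Cd8a-only, Cd8b1-only and both cells numbered 25, 118 and 127 in the kidney and 32, 237 and 76 in the spleen. All other cells, 4709 from the kidney and 8013 from the spleen, are called neither.

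The mice carried loxP-flanked Ezh2 on both alleles (Ezh2fl/fl) on the MRL/lpr background, and the knockout littermates (KO) also carried the tamoxifen-inducible Cd4-cre/ERT2 transgene of line 11Gnri, backcrossed for 6 generations. Cre was thus driven from Cd4 regulatory sequence, and the labels do not say in which share of cells Ezh2 was deleted. The floxed mice without Cre (WT) served as controls. All mice of both genotypes received tamoxifen by gavage at 300 mg/kg, begun at 10 weeks of age in one schedule and at 14 weeks in the other, and were followed to 24 weeks; the labels do not say which schedule each mouse had. Sorting used antibodies to CD3ε, TCRβ, CD4 and CD8a, and each organ of each mouse carried a TotalSeq-C tag before pooling for 5′ single-cell RNA sequencing. Per the labels 10 floxed and 9 Cre mice were sorted. The cells of 2 KO mice (KO1, KO2) and 3 WT mice (WT1, WT2, WT3) from the first of both processing days are described here, and values listed for 5 mice follow that order. The matrices number the tags from 1 to 10 without their sequences, and the mouse of each tag was taken from its place in the deposited tag key. Tags 1 to 5 led the kidney blocks and 6 to 10 the spleen blocks, as in the key, but nothing in the files checks the genotype of a tag, so each statement on genotype rests on that order.

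The CD8 coreceptor binds class I MHC molecules beside the T cell receptor. Cd8a encodes the α chain, which can pair with itself or with the β chain encoded by Cd8b1, and the αβ form is the usual coreceptor of cytotoxic T cells. Mature αβ T cells normally carry either CD4 or CD8. Cytotoxic cells kill through perforin and granzymes and can carry lectin receptors first known from natural killer (NK) cells. In MRL/lpr mice a defect of Fas leads to the accumulation of T cells lacking both coreceptors, and EZH2 is the histone methyltransferase of Polycomb repressive complex 2 (PRC2).

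No cell barcode occurred in over 1 of the first-day libraries, and 13 of 13368 deposited cells carried more UMIs of another mouse's tag than of their own, none of them a member. Kidney libraries held 219 (KO2) to 1629 (WT1) kept cells and spleen libraries 922 to 2386. Members were deeper cells. Median UMIs per cell were 5084.5 in kidney members (6146 in both cells, 4239.5 in Cd8b1-only, 4457 in Cd8a-only) against 3353 in neither cells, and 3882 in spleen members (4412, 3837 and 3762.5) against 3379. Cells over 10000 UMIs made up 19.3% of kidney members, 12.8% of spleen members and 2.78% of neither cells of both organs. Depth thus moved with membership. Counts of calls from cells thinned to 2000 UMIs, or without cells over 10000 UMIs, are given for several comparisons, and results of single genes only in part. A call given without such a result need not hold at equal depth. No doublet caller was run. Either transcript was also found in cells with genes of other lineages, of which some dendritic cells of the mouse can carry CD8a. Among cells with 10 or more UMIs of genes of B, myeloid, dendritic, NK, tubular or red cells, which had medians of 8329 (kidney) and 6722 (spleen) UMIs, 5.48% of 73 kidney cells (95% Wilson interval 2.15 to 13.3) and 8.81% of 193 spleen cells (5.57 to 13.7) were members, against 5.42% and 4.13% of all cells. Both cells made up 1.37% (0.242 to 7.36) and 1.55% (0.530 to 4.47) of them, against 2.55% and 0.909% of all cells. The kidney share of both cells rests on 1 of 73 cells. A share within these intervals is not separable from that of these cells. Their Cd8 transcripts may be their own or may have reached the droplet from other cells, which was not tested. All such intervals cover counting error only. Ezh2 was at 84.0, 82.2, 71.1, 138 and 218 CPM (counts scaled to the library total) in kidney members and at 113, 71.1, 75.9, 247 and 180 CPM in spleen members. The genotypes overlapped in both organs, and since the reads come from transcript 5′ ends, whether they cover the floxed exons is not given in the sources used here, so these levels do not check the genotype labels.

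The members ranged widely in the number of Cd8 UMIs, the value that chose them. Of the 615 members, 328 held the single UMI that the rule required and so lie just inside it, next to 12722 cells with 0, while 115 held 6 or more, up to 33 in a kidney cell and 26 in a spleen cell. Both cells had median counts of 3 Cd8a and 3 Cd8b1 UMIs in the kidney and of 2 and 2 in the spleen, whereas Cd8b1-only cells had a median of 1 and at most 4. In CPM of the summed both cells, Cd8a was at 526, 507, 515, 596 and 469 in the kidneys and Cd8b1 at 554, 421, 415, 596 and 514. These levels belong to cells chosen for holding both transcripts and are a description only. In the 3 spleens with at least 10 both cells (KO1, KO2 and WT3), Cd8a was at 574, 539 and 718 CPM and Cd8b1 at 518, 612 and 640 CPM.

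Cd4 was found in fewer of the cells with 6 or more Cd8 UMIs than of those with 0. In the kidney, the share of cells with at least 1 Cd4 UMI was 63.2% of 4709 cells at 0 Cd8 UMIs, 69.7% of 109 cells at 1, 55.6% of 27 cells at 2, 41.8% of 55 cells at 3 to 5 and 38.0% of 79 cells at 6 or more. In the spleen it was 64.4% of 8013, 67.6% of 219, 62.5% of 40, 56.0% of 50 and 36.1% of 36 cells. Cells at 1 Cd8 UMI thus showed Cd4 as often as cells at 0 within their counting error, although they were deeper. At 2000 UMIs a cell the 5 shares were 45.4%, 49.5%, 34.6%, 27.8% and 15.2% in the kidney and 48.2%, 44.4%, 28.2%, 49.0% and 22.2% in the spleen. The spleen thus showed no steady fall at a common depth. Klrc1, which encodes the inhibitory lectin receptor NKG2A, ran the other way, from 34.5 CPM at 0 Cd8 UMIs to 84.1, 349, 263 and 399 CPM in the kidney and from 9.00 to 12.2, 12.6, 96.9 and 151 CPM in the spleen. Cd40lg, the helper ligand for CD40, went from 129 to 37.1 CPM in the kidney and from 99.5 to 11.0 CPM in the spleen. Prf1, which encodes perforin, stood at 348 CPM in kidney and 460 CPM in spleen cells of 6 or more Cd8 UMIs, against 55.5 and 72.3 CPM at 0. These levels pool the cells of the 5 mice and carry no test. Cells of 6 or more had median depths of 7106 (kidney) and 7259 (spleen) UMIs.

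**Figure D1:**
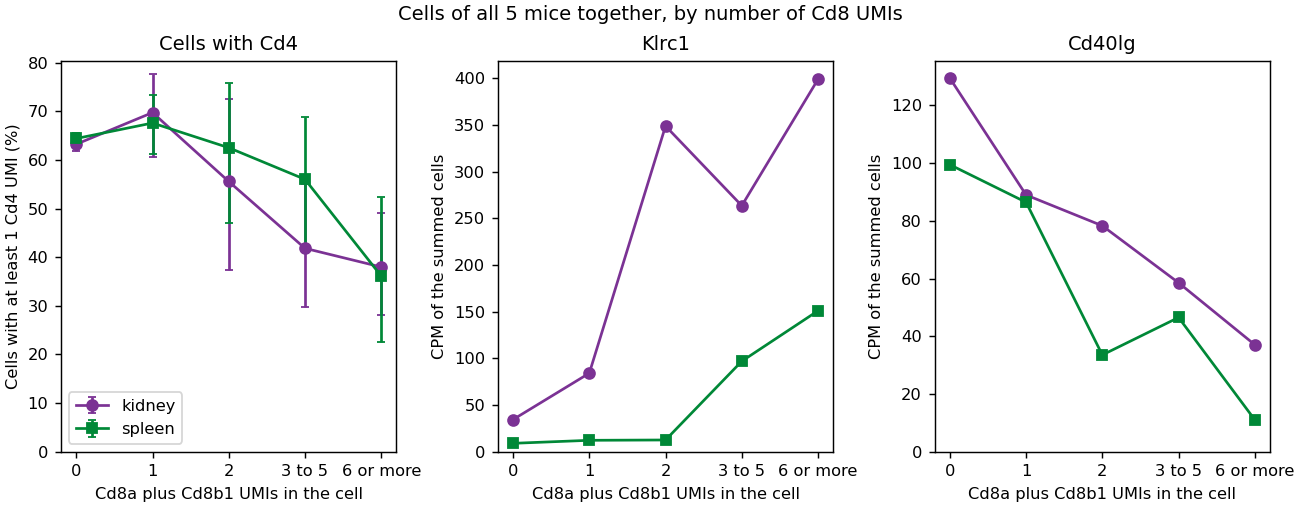
Share of cells with at least 1 Cd4 UMI (left, %, bars are 95% Wilson intervals) and levels of Klrc1 and Cd40lg (middle and right, CPM of the summed cells) by the number of Cd8a plus Cd8b1 UMIs in the cell, for kidney (circles) and spleen (squares), all 5 mice together. Cd4 was found in 63.2% of kidney cells at 0 Cd8 UMIs, in 69.7% at 1 and in 38.0% at 6 or more, and Klrc1 stands at 399 CPM in the last kidney bin against 34.5 CPM in the first.

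Tested over mice, Cd4 was carried by 40.6% ± 12.9 (SD, n = 5 mice) of kidney both cells against 60.5% ± 6.14 of kidney neither cells. The share was lower in 5 of 5 mice, by 19.9 percentage points on average (exact two-sided paired permutation test, p = 0.0625, the smallest that 5 pairs allow; 0.188 after Benjamini-Hochberg adjustment over 12 such comparisons). At 2000 UMIs a cell it was 24.1% against 43.4%, lower in 4 of 5 mice. Spleen both cells had Cd4 in 29.0% ± 26.8 against 64.6% ± 6.98 of neither cells, lower in 5 of 5 mice, with the same p. That mean counts WT1 (0 of 8 cells) and WT2 (0 of 1 cell) as much as KO2 (24 of 45), and over all spleen both cells Cd4 was found in 34 of 76 (44.7%). At 2000 UMIs a cell it was 21.3% against 47.6%, lower in 4 of 5 mice (exact p = 0.125), with KO2 at 43.2% against 41.5%. Cd8b1-only cells showed no lower share when averaged over the 5 mice. They carried Cd4 in 67.2% ± 21.5 of kidney and 70.5% ± 9.02 of spleen cells, 6.70 and 5.97 points above neither cells (exact p = 0.375 and 0.0625), and at equal depth the spleen difference turned to −4.44 points. The kidneys split by genotype, with Cd4 in 50.0% and 38.5% of Cd8b1-only cells of KO1 and KO2 against 57.3% and 51.1% of their neither cells. In WT1, WT2 and WT3 it was in 78.9%, 86.7% and 81.8% against 65.1%, 64.8% and 64.0%. KO2 had 13 and WT3 11 of these Cd8b1-only cells, and their median depth was 3809 UMIs in KO and 4880 in WT mice. At 2000 UMIs a cell the shares were 36.0%, 33.3%, 47.4%, 56.7% and 72.7%. Neither cells then stood at 41.2%, 34.7%, 45.3%, 45.6% and 50.3%, so KO2 and WT1 hardly differed from theirs. Over all members the difference was −7.29 points in the kidney (exact p = 0.25) and 0.550 points in the spleen (exact p = 0.75), and the latter turned negative when cells were thinned. Within kidney both cells, Cd4 was found in 19 of 56 cells of KO1, 7 of 20 of KO2, 15 of 25 of WT1, 7 of 15 of WT2 and 3 of 11 of WT3. The genotypes overlapped, WT3 having the lowest share of the 5. The 51 kidney both cells with Cd4 were deeper (median 7874 UMIs, 20 over 10000) than the 76 without it (5581.5 UMIs, 14 over 10000). The former had 239 CPM of Klrc1, 61.8 CPM of Cd40lg and 175 CPM of Prf1, and the latter 511, 10.4 and 333 CPM. In the spleen, 34 both cells with Cd4 had 26.4 CPM of Klrc1 and 84.5 CPM of Prf1, and 42 without it 246 and 574 CPM. Whether cells with both coreceptors are 1 cell or 2 in a droplet was not tested.

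In both organs the share of members was higher in both KO mice than in any WT mouse. They made up 11.7%, 16.0%, 4.60%, 3.48% and 2.64% of kidney cells and 4.53%, 9.11%, 3.39%, 1.95% and 1.96% of spleen cells. The genotypes did not overlap. The means were 13.8% ± 3.02 (SD, n = 2) against 3.57% ± 0.986 (n = 3) in the kidney and 6.82% ± 3.24 against 2.43% ± 0.831 in the spleen, differences of 10.3 and 4.39 points. An exact two-sided permutation test gave p = 0.1 for each, the smallest that 2 against 3 mice can give, and 0.113 adjusted over 9 shares compared, so no share passed 0.05. When cells were thinned to 2000 UMIs before being classed, the means were 11.6% against 2.81% in the kidney and 4.69% against 1.41% in the spleen.

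Both cells made up 7.23 of the 10.3 points in the kidney. They were 56 of 717, 20 of 219, 25 of 1629, 15 of 1467 and 11 of 947 cells, or 7.81%, 9.13%, 1.53%, 1.02% and 1.16%. KO mice averaged 8.47% ± 0.935 and WT mice 1.24% ± 0.265, and the WT values lay within the interval of the share in cells of other lineages. Both KO values lay above its upper bound of 7.36%, but their own intervals, 6.06 to 10.0% and 5.99 to 13.7%, include that bound. In the spleen, both cells were 0.906%, 2.85%, 0.335%, 0.108% and 0.466% (12, 45, 8, 1 and 10 cells). The KO values lay within the interval of the share in cells of other lineages and the WT values below it. Cd8b1-only cells were 3.63%, 5.94%, 2.33%, 2.04% and 1.16% of kidney cells and 3.25%, 5.19%, 2.81%, 1.84% and 1.30% of spleen cells, so KO again lay above WT without overlap. Cd8a-only cells were few and the genotypes overlapped, with 0.279%, 0.913%, 0.737%, 0.409% and 0.317% in the kidney and 0.378%, 1.08%, 0.251%, 0 of 922 cells (Wilson upper bound 0.415%) and 0.186% in the spleen. Within mice, kidney exceeded spleen for members by 3.49 points and for both cells by 3.20 points, in 5 of 5 mice (exact paired permutation test, p = 0.0625, the smallest possible). For Cd8b1-only cells the organs differed by 0.141 points, with the kidney higher in 3 of 5 mice (exact p = 0.5625). The pattern in KO mice rests on 2 animals.

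**Figure D2:**
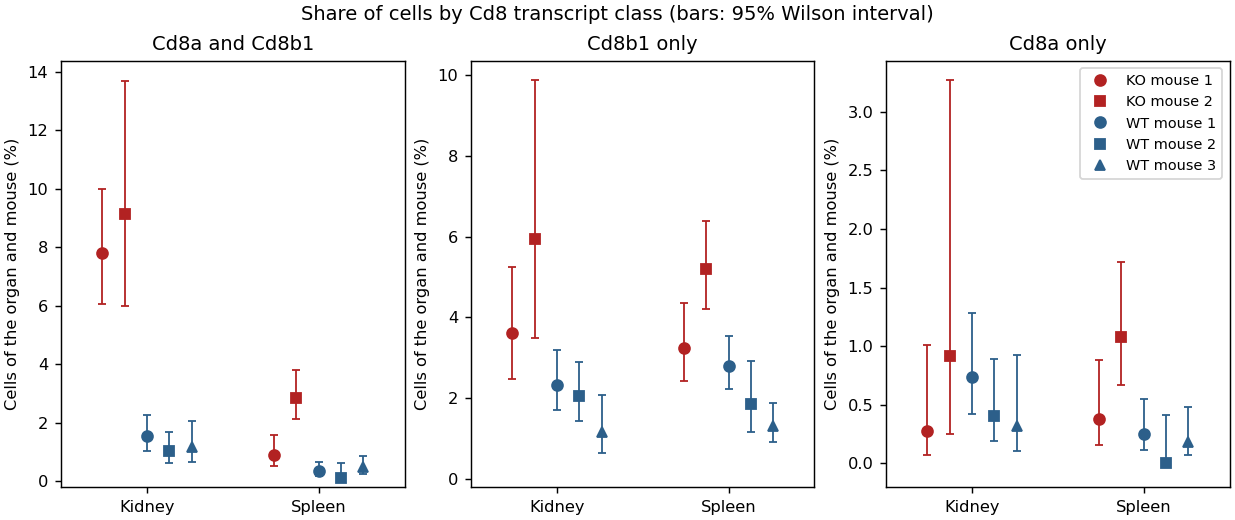
Share of the cells of each organ and mouse (%, bars are 95% Wilson intervals) with both Cd8a and Cd8b1 (left), Cd8b1 alone (middle) and Cd8a alone (right), each panel with its own scale. The 2 KO kidneys stand at 7.81% and 9.13% both cells, above the 3 WT kidneys at 1.02% to 1.53%, while the Cd8a-only shares of the genotypes overlap.

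Kidney both cells carried the lectin receptor and cytotoxic genes of killer cells together with inhibitory receptors, and less Cd4, Cd40lg and recirculation genes than neither cells. Each mouse gave 1 sum of UMIs per class, and edgeR's quasi-likelihood test compared the sums with the mouse as a block, leaving out Cd8a and Cd8b1. Adjusted p-values (Benjamini-Hochberg, over all genes tested) in what follows come from this test. Between both and neither cells of the kidney 663 of 4370 genes (15.2%) passed an adjusted p of 0.05, 311 higher and 352 lower in both cells. Without the mouse block 90 passed, and without cells over 10000 UMIs 283. The latter fit also lost WT3, which had 9 both cells left, and tested 2904 genes in 4 mice. Without KO1 239 passed and without WT1 417.

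Of the lectin receptors, Klrc1 was at 31.8, 22.6, 71.4, 18.7 and 2.95 CPM in neither cells and at 354, 207, 442, 419 and 469 CPM in both cells of the kidney. The classes did not overlap (log2 difference 3.81 ± 0.37 SE, adjusted p = 2.38e-07). Klrd1, whose product CD94 pairs with NKG2A, was at 9.69, 12.1, 66.1, 15.5 and 11.8 CPM in neither and at 154, 150, 178, 129 and 106 CPM in both cells, again without overlap (2.70 ± 0.36, adjusted p = 1.9e-05). Klrk1, the activating receptor NKG2D, was at 100, 85.6, 123, 64.4 and 106 CPM in both cells against 16.0 ± 14.4 CPM in neither cells (2.55 ± 0.34, adjusted p = 1.9e-05). Thus 3 of 4 tested members of the lectin receptor list rose, with a list median of 2.62 on the log2 scale against 0.004 over all genes tested. The list has 22 members, and the filter on low counts left the others untested. Klrc1, Klrd1 and Klrk1 were low in neither cells and passed that filter mainly through cells with a Cd8 transcript. A fall could thus hardly be called, and this count and median are a description only. Klre1, a lectin receptor gene of the same cluster that the filter on low counts left untested, was at 23.3, 14.3, 68.4, 40.3 and 75.6 CPM in both cells against a mean of 2.72 CPM. By cells, Klrc1 was found in 44.1% of 127 kidney both cells, 16.9% of Cd8b1-only, 28.0% of Cd8a-only and 4.10% of neither cells, and Klrd1 in 40.2% of both and 5.54% of neither cells. At 2000 UMIs a cell the both shares were 34.1% and 19.8%. Conversely, 30.1% of the 276 kidney cells with Klrc1 and 23.8% of the 130 spleen cells with Klrc1 were members.

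The killing machinery followed. Prf1 was at 15.2, 27.1, 49.4, 71.7 and 72.8 CPM in kidney neither cells and at 193, 207, 392, 298 and 151 CPM in both cells, every both value above every neither value (2.58 ± 0.24, adjusted p = 2.38e-07). Gzmb, the serine protease granzyme B, was at 11.5, 54.3, 107, 178 and 103 CPM in neither and at 230, 250, 283, 475 and 438 CPM in both cells (2.14 ± 0.29, adjusted p = 1.9e-05). Here too the classes were apart. Of the 13 cytotoxic genes tested 9 rose, with a median of 1.49, among them Nkg7 of the cytotoxic granule (1.59 ± 0.18) and the chemokine Ccl5 (1.85 ± 0.22). Gzma was uneven, with 18.6, 571, 510, 0 and 0 CPM in both cells, and its call (3.08 ± 0.37) was lost in DESeq2 (adjusted p = 0.107). Gzmk showed no difference that passed (0.32 ± 0.35, adjusted p = 0.615), with a neither mean of 529 CPM.

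All 6 genes tested of the inhibitory receptor list rose in kidney both cells, with a median of 1.85. They are 5 surface proteins and Tox, a nuclear factor of chronically stimulated T cells (0.60 ± 0.16, adjusted p = 0.0109). Havcr2, which encodes TIM-3, was at 182, 107, 155, 201 and 90.7 CPM against 31.3 ± 15.2 CPM in neither cells (2.43 ± 0.25, adjusted p = 6.76e-07). Lag3 (2.07 ± 0.20) stood at 326, 228, 743, 459 and 378 CPM and Pdcd1, encoding PD-1 (2.06 ± 0.23), at 503, 300, 355, 354 and 514 CPM. Entpd1 (1.64 ± 0.28) and Tigit (1.00 ± 0.16) also rose. Beyond these lists, the largest increases were of Glp1r, the receptor for glucagon-like peptide 1 (3.93 ± 0.65), and of Adgrg1, the adhesion receptor GPR56 (3.72 ± 0.52). Glp1r was at 81.4, 64.2, 27.3, 16.1 and 181 CPM in both cells and at 3.98 ± 2.01 CPM in neither cells, Adgrg1 at 60.5, 50.0, 31.9, 153 and 106 CPM against 5.16 ± 3.00 CPM. Neither gene overlapped between the classes. Both were low in neither cells and passed the filter on low counts only through cells with a Cd8 transcript, so their call and rank are not independent of that filter. Ms4a4a (3.38), Prr5l (3.10) and Coch (2.53) followed.

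Cd4 in kidney both cells was at 83.8, 150, 160, 177 and 90.7 CPM against 310, 249, 380, 315 and 341 CPM in neither cells. It was lower in 5 of 5 mice without overlap (−1.30 ± 0.20, adjusted p = 6.56e-05) but not absent. Cd40lg was at 16.3, 14.3, 114, 0 and 15.1 CPM against 167, 145, 214, 58.6 and 85.8 CPM (−2.14 ± 0.34, adjusted p = 0.000113, or 0.085 without the mouse block), the WT1 value standing apart from the others. Runx3, a transcription factor of the CD8 lineage that represses Cd4, did not differ (−0.02 ± 0.15, adjusted p = 0.955). The levels of Zbtb7b, its counterpart of the CD4 lineage, were too low to test (7.04 against 12.7 CPM). Of the 10 naive and recirculation genes 7 fell, with a median of −1.05. They included Tcf7 (−1.88 ± 0.25) and S1pr1, the receptor that guides exit from lymphoid tissue (−1.79 ± 0.25). The homing receptor Ccr7 (−0.94) and the factor Lef1 (−1.01) also fell but lost their call without cells over 10000 UMIs, a fit that also lacked WT3. Further below, Igfbp4 (−3.34 ± 0.47), Tmem64 (−2.33 ± 0.24) and Aff3 (−2.28 ± 0.30) fell.

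Genes of the T cell receptor complex were found in nearly all of these cells. Cd3e was found in 99.2% of kidney both and 94.3% of neither cells, and Trac in 79.5% and 48.5%. Trdc, Fcer1g, Tyrobp and Ncr1, genes of γδ T or NK cells, had a UMI in 0 of 127 both cells, which allows a share of cells with a UMI of up to 2.94% (Wilson upper bound). The same genes had a UMI in 0.382%, 0.977%, 0.616% and 0 of the 4709 neither cells, so a difference between the classes was not detectable at this number of cells. Other values went the other way. Over all kidney members the 1 γδ T cell gene tested, Tcrg-C2, was called higher (2.03). Its list summed to 12.3 to 78.6 CPM in members against 3.81 to 20.1 CPM in neither cells, with Trdc and Sox13 at 0 in members. Fcer1g was found in 5 of 25 kidney Cd8a-only cells. Of 14 receptor complex genes 4 rose, Cd3g most (0.74 ± 0.12), and Cd5, a negative regulator of receptor signalling, fell (−1.29 ± 0.19). Of 8 cell cycle genes 7 rose, with a median of 1.63. Without cells over 10000 UMIs, in a fit that also lacked WT3, none of the 8 passed the filter on low counts. The cell cycle count could thus not be checked without deep cells. Without KO1 3 of 9 rose, so it depended on KO1. Genes of other lineages did not move one way. Gpx3, a secreted kidney tubule product, was at 0 in each both sum (at least 70.7-fold lower) and so was Lyz2 of macrophages (at least 10.4-fold lower), both against a floor of 3 counts over the group. Summed over its list, B cell genes were at 157 to 447 CPM in kidney both cells (median 322) and at 573 to 1082 CPM in neither cells (median 707), and myeloid genes at 107 to 219 (median 136) against 162 to 316 CPM (median 227). Dendritic cell genes ran higher, at 46.5 to 123 against 24.5 to 39.2 CPM, with Irf8 past the threshold (1.37 ± 0.36, adjusted p = 0.0114), whereas Xcr1, Clec9a, Flt3 and Siglech of that list were at 0 in all kidney members. NK cell genes were at 0 to 571 against 11.2 to 75.4 CPM, and the 1 gene tested, Gzma, is also a cytotoxic gene and rose. The part of other cells in these results was not tested. None of the 5 PRC2 genes tested passed in this comparison, Ezh2 itself standing at 0.29 ± 0.20 (adjusted p = 0.379).

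The promoters of 3 genes that rose together are shown beside that of Cd8a, 1 of the 2 genes that chose the cells; that of Cd8b1 is not shown. Each sequence is RefSeq's on GRCm38.p6, the 250 bases before the transcription start, 5′ to 3′ on the gene's strand. Capitals mark TGTGGT or its complement ACCACA, the core letters bound by RUNX factors, which as background act at Cd8 and cytotoxic genes. Cd8a lies at chr6:71373177-71373426 (+), Klrc1 at chr6:129678974-129679223 (−), Prf1 at chr10:61297586-61297835 (+) and Gzmb at chr14:56262335-56262584 (−).
Cd8a: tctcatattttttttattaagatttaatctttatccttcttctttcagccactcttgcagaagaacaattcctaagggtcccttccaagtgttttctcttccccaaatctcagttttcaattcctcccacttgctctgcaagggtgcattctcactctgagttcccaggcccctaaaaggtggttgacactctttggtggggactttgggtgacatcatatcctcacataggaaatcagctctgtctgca
Klrc1: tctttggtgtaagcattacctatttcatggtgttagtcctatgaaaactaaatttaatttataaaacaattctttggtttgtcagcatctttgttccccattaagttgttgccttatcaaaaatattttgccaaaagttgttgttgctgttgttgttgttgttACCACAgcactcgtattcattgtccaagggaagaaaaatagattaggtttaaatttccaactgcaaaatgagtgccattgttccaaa
Prf1: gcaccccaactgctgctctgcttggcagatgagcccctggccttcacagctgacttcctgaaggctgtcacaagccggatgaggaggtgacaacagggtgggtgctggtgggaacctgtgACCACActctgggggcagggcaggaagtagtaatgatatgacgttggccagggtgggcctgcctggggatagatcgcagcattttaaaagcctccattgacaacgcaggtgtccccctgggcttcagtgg
Gzmb: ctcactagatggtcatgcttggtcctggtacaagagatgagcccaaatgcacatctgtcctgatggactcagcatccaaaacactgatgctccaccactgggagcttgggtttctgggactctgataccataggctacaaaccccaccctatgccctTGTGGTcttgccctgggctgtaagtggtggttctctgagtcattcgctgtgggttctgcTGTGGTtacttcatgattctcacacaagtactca
The letters occurred 0 times in the Cd8a window, 1 time in those of Klrc1 and Prf1 (on the other strand) and 2 times in that of Gzmb. Genes not called higher held them too, 2 times in a window of Runx3 and 1 time in a window of Zbtb7b. Another window of each of these 2 genes held them 0 times. Of 32851 such windows 4614 (14.0%) held them at least 1 time. A match is a description of these letters, not evidence of binding.

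Spleen both cells shared the lectin and cytotoxic genes but rested on 67 cells of 3 mice. Between both and neither cells 106 of 6922 genes (1.53%) passed, 39 higher and 67 lower, and without the mouse block 1 did. Without KO2 41 passed. Prf1 was at 644, 95.9 and 582 CPM in KO1, KO2 and WT3, and KO2 stood well below the others (3.14 ± 0.41, adjusted p = 0.000426). Gzmb was at 280, 251 and 310 CPM against 46.4 ± 54.3 CPM, without overlap (3.13 ± 0.47, adjusted p = 0.00108). Of 13 cytotoxic genes 7 rose, with a median of 1.80 against −0.065 over all genes, and of 4 lectin receptors 3 rose. Klrc1 was at 28.0, 36.5 and 310 CPM, so the WT3 value led it. Its log2 difference of 3.98 ± 0.82 became 2.03 without WT3 (adjusted p = 0.186), and without WT3 0 of 4 lectin receptors passed. Klre1 was at 0 in all 3 sums. Ly6c2, a surface antigen of antigen-experienced CD8 T cells, was at 769, 411 and 407 CPM against 48.0 ± 7.62 CPM, and the classes lay far apart (3.53 ± 0.32, adjusted p = 1.64e-06). Glp1r rose here as well (28.0, 32.0 and 97.0 CPM, 3.64 ± 0.77). Of 6 genes of the inhibitory receptor list 4 rose and of 11 naive and recirculation genes 7 fell. Foxp3, the factor of regulatory T cells, was at 0, 4.57 and 19.4 CPM against 89.5 ± 57.7 CPM (−4.15 ± 0.77), a call lost without KO2 (adjusted p = 0.309). Without KO2 naive genes also gave 0 that fell and 1 that rose. Cd40lg fell (−1.78 ± 0.39), while Cd4, at 280, 237 and 252 CPM, gave −0.50 ± 0.22 (adjusted p = 0.351). Of 10 cell cycle genes 0 passed. One of the 12 KO1 spleen both cells held 21 UMIs of Siglech, a gene of plasmacytoid dendritic cells, 303 of the class II chaperone Cd74 and 0 of Cd3e among 11218. The KO1 sum stood at 7582 CPM for the B cell list, the other mice at 213 and 498 CPM, and Iglc2 and Irf8 passed in this comparison. Without cells of 10 or more UMIs of other lineages 8 of 13 cytotoxic and 3 of 4 lectin genes rose.

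Cd8b1-only cells showed few differences from neither cells in the kidney, and in the spleen cell cycle genes were among those that rose. In the kidney 2 of 4370 genes (0.0458%) passed, Gpx3 (−6.80 ± 0.58) and the class II gene H2-Eb1 (−3.00 ± 0.55), both lower. Gpx3 was at 3.15 CPM in all kidney members of WT2 and at 0 in those of the other mice. It passed the filter on low counts mainly through neither cells, so it could hardly be called higher. The size of its difference depends on the prior count. Without the mouse block 0 passed, and 1 to 5 with 1 mouse left out. Klrc1 in these cells was at 247, 33.9, 149, 58.0 and 0 CPM, overlapping neither cells (1.86 ± 0.48, adjusted p = 0.471), and Cd4 was at 323, 136, 475, 331 and 429 CPM (0.10 ± 0.18, adjusted p = 0.975). In the spleen 127 of 6922 genes (1.83%) passed, 93 higher and 34 lower, and 0 without the mouse block. Of 10 cell cycle genes 9 were higher, with a list median of 1.89. Ccnb2, a mitotic cyclin, was at 12.0, 9.11, 19.6, 41.7 and 17.5 CPM in neither cells and at 107, 32.2, 108, 98.8 and 149 CPM in Cd8b1-only cells (2.38 ± 0.26, adjusted p = 9.26e-06). It was higher in 5 of 5 mice, with KO2 lowest. Cdk1 (2.21 ± 0.31), Cdc20 (2.28 ± 0.30) and Cdkn3 (2.39 ± 0.52) behaved alike. Of these cells 13.9% exceeded 10000 UMIs against 2.81% of neither cells. Without cells over 10000 UMIs 4 genes passed in all and 0 of the 3 cell cycle genes then testable, and at 2000 UMIs a cell 4 genes and 1 of 5. Of 10 early response genes, which react to stimulation and to tissue handling, 4 fell, but 0 without KO1, WT2 or WT3. The calls in all numbered 57 to 68 without KO1, WT1, WT2 or WT3. Rel was lower in 5 of 5 mice (−0.72 ± 0.17) and so was Arhgap26 (−0.98 ± 0.22), at 34.4, 37.5, 28.1, 37.1 and 42.5 CPM against 58.1, 68.4, 59.1, 77.0 and 93.5 CPM, with no overlap. Lectin and cytotoxic genes gave 0 of 4 and 0 of 13 calls.

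Compared directly, both cells exceeded Cd8b1-only cells in part of the cytotoxic and inhibitory receptor lists. In the kidney 96 of 4370 genes (2.20%) passed, 34 higher and 62 lower, and 0 without the mouse block. Cytotoxic genes gave 6 of 13 higher, the inhibitory receptor list 5 of 6, lectin receptors 1 of 4 and cell cycle genes 0 of 8. Klrd1 did not pass (1.45 ± 0.46, adjusted p = 0.104), nor did Klrk1 (1.20 ± 0.43, adjusted p = 0.159). Klrc1 (1.95 ± 0.46, adjusted p = 0.0218), Gzmb (1.87 ± 0.37, adjusted p = 0.00728), Havcr2 (1.66 ± 0.34), Prf1 (1.62 ± 0.31), Pdcd1 (1.52 ± 0.29) and Lag3 (1.45 ± 0.25) were higher in 5 of 5 mice. Tnfrsf9, the costimulatory receptor 4-1BB, was too (1.77 ± 0.31). Lower were Tnfsf8, the ligand of CD30 (−2.15 ± 0.31), Tcf7 (−1.80 ± 0.29), Tmem64 (−2.18 ± 0.29) and Cd4 (−1.41 ± 0.22, adjusted p = 0.00137, lower in 4 of 5 mice). In KO2 Cd4 was 150 CPM in both and 136 CPM in Cd8b1-only cells. Without cells over 10000 UMIs, which also left out WT3, 25 genes passed. Without KO1 32 passed, and 52, 61 and 63 without KO2, WT1 and WT2. In the spleen 55 of 6922 genes (0.795%) passed, 26 higher and 29 lower, with 0 without the mouse block and 29 without KO1. Cytotoxic genes gave 8 of 13 higher, the inhibitory receptor list 3 of 6 and lectin receptors 1 of 4, Klrd1 (3.26 ± 0.73), while Klrc1 did not pass (3.37 ± 0.92, adjusted p = 0.0831). Ly6c2 (3.30 ± 0.37), Gzmb (3.23 ± 0.54), the chemokines Ccl4 (3.11 ± 0.37) and Ccl3 (2.71 ± 0.58), Prf1 (3.07 ± 0.47) and Havcr2 (2.92 ± 0.55) were higher in 3 of 3 mice. Stmn1, a gene of dividing cells, was lower (−2.67 ± 0.43) and so were Lef1 (−2.18 ± 0.33) and Izumo1r (−2.18 ± 0.42). Cd4 did not differ here (−0.14 ± 0.23, adjusted p = 0.895).

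**Figure D3:**
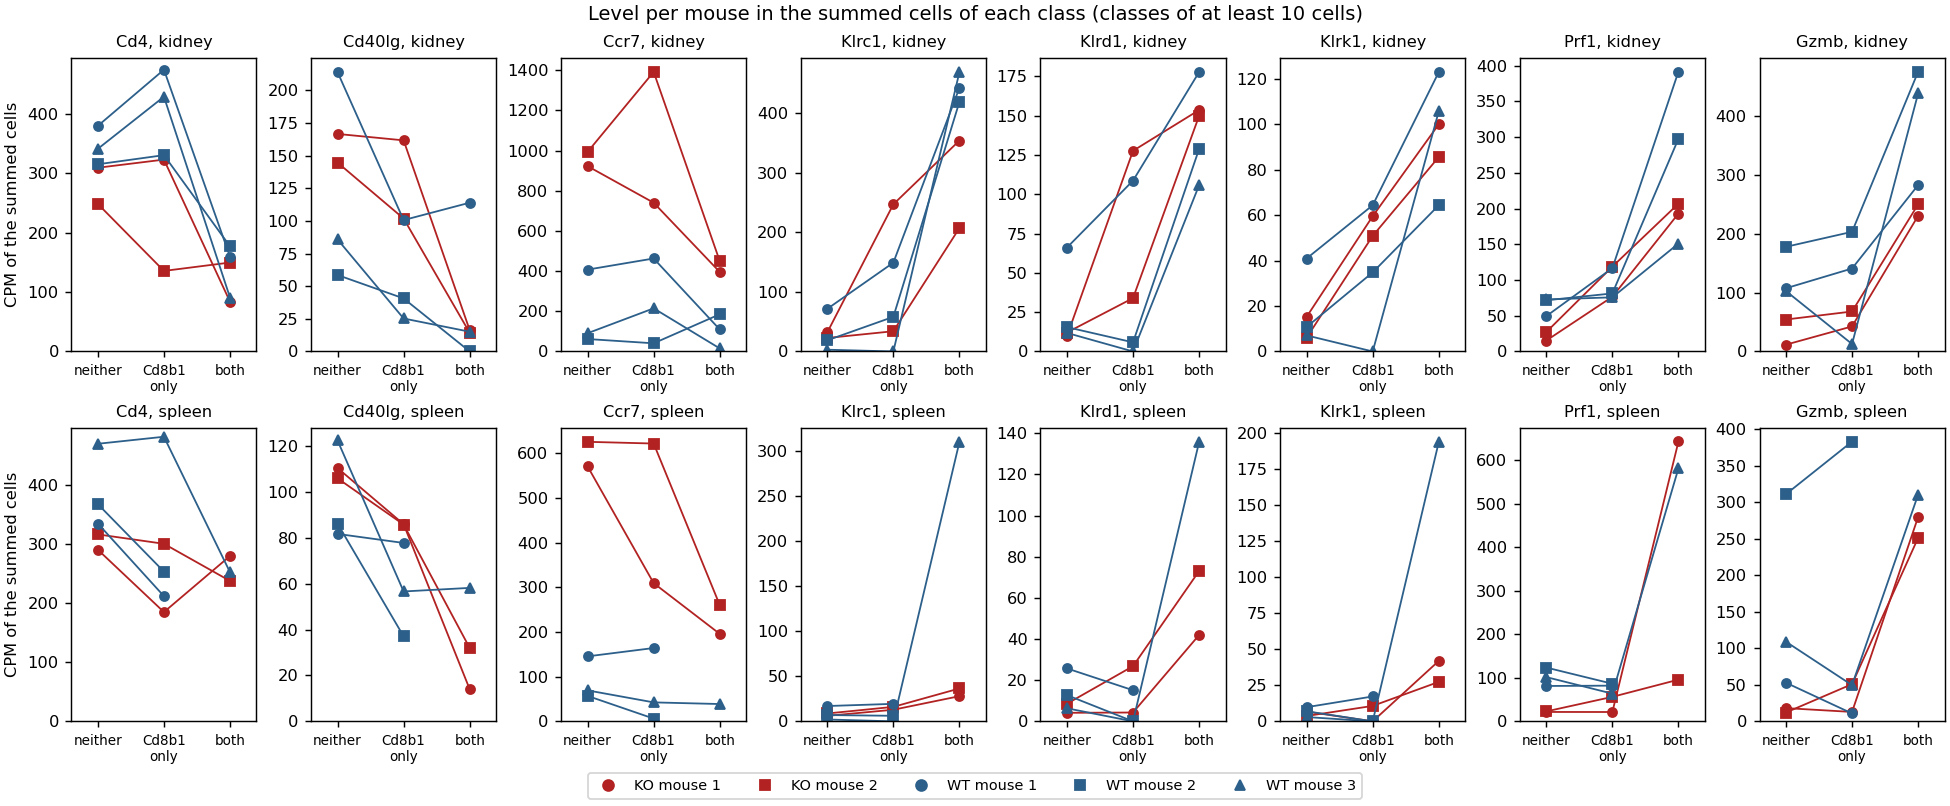
Level of 8 genes (CPM of the summed cells of a mouse) in neither, Cd8b1-only and both cells of kidney (top) and spleen (bottom), with KO mice in red, WT mice in blue and a line for each mouse, for classes of at least 10 cells. In the kidney Klrc1, Prf1 and Gzmb are highest in both cells of each of the 5 mice, and Cd4 of both cells, at 83.8 to 177 CPM, lies below each neither value.

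Over all members, the kidney gave 513 of 7477 genes (6.86%) past the threshold against neither cells, 249 higher and 264 lower. Without the mouse block 16 passed and at 2000 UMIs a cell 211. Without KO1 218 passed and without WT1 283. Klrc1 rose from 29.5 ± 25.6 to 231 ± 64.4 CPM (SD, n = 5, log2 difference 3.13 ± 0.30, adjusted p = 4.92e-06), and Klre1 (3.18 ± 0.56) and Klrc2 (3.50 ± 0.57), testable here, rose as well. Genes as low in neither cells as Klre1, at 3.91 CPM in the pooled cells, were testable only through the members. Cytotoxic genes gave 9 of 13 higher, a count that was the same without cells over 10000 UMIs, and the inhibitory receptor list 5 of 6. Cd4 fell by 0.55 ± 0.14 (adjusted p = 0.0227) and Cd40lg by 1.39 ± 0.19 on the log2 scale. In the spleen 190 of 10928 genes (1.74%) passed, 111 higher and 79 lower, or 123 higher and 55 lower under DESeq2's size factors in edgeR, and 0 without the mouse block. Without KO1 117 passed. Klrc1 was higher in 4 of 5 mice (2.30 ± 0.43, adjusted p = 0.00314), while lectin receptors gave 1 of 5 and cytotoxic genes 1 of 14, Prf1 (1.19 ± 0.24). Cell cycle genes gave 9 of 10 higher, and 0 of 10 without cells over 10000 UMIs. Ccnb2, at 2.02 ± 0.22 in all cells, stood at 1.69 (adjusted p = 0.326) at 2000 UMIs a cell and at 1.09 (adjusted p = 0.919) without deep cells. Of 10 early response genes 7 fell, Fosb by 0.69 ± 0.13 and Fos by 0.65 ± 0.11. Cd4 fell by 0.45 ± 0.11 (adjusted p = 0.0348) and Cd40lg by 0.70 ± 0.16 (adjusted p = 0.0238), each in 5 of 5 mice. Of 9 myeloid genes 3 had counts in members of each organ, and the list summed to 106 to 384 CPM in kidney and 105 to 182 CPM in spleen members against 162 to 318 and 139 to 581 CPM in neither cells. At 0 in the summed members were S100a9 (at least 53.9-fold lower) and Lyz2 (at least 12.7-fold lower) in the spleen and C1qa (at least 10.5-fold lower) in the kidney.

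The difference between members and neither cells itself differed between the organs for 6 of 8664 genes (0.0693%). Cd7, an early T and NK cell surface protein, went from 51.6, 54.5, 55.4, 50.9 and 27.3 CPM in kidney neither cells to 136, 193, 238, 218 and 218 CPM in members, and from 128, 116, 56.3, 269 and 126 to 205, 175, 88.9, 304 and 293 CPM in the spleen. Kidney members exceeded kidney neither cells in each mouse, and the interaction was 1.34 ± 0.23 (adjusted p = 0.0136). Lag3 rose in the kidney from 120, 33.3, 227, 103 and 40.8 to 266, 169, 625, 298 and 193 CPM. In the spleen it was at 124, 169, 636, 241 and 314 CPM in neither cells and at 125, 271, 448, 399 and 454 CPM in members (interaction 1.27 ± 0.24, adjusted p = 0.0409). Ly6c2 ran the other way (−1.57 ± 0.27, adjusted p = 0.0136). Its spleen members were at 176, 167, 254, 180 and 118 CPM against 49.9, 54.9, 68.0, 94.2 and 40.1 CPM in neither cells, while in the kidney members and neither cells overlapped (94.4, 232, 61.8, 191 and 6.24 against 85.3, 130, 98.6, 144 and 43.4 CPM). Ier5l, an immediate early gene, gave 1.63 ± 0.26 (adjusted p = 0.0094). Without cells over 10000 UMIs 0 genes passed, and 1, 3 and 10 without WT1, WT3 and KO2. For Klrc1 the interaction was 0.86 ± 0.61 (adjusted p = 0.792).

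Members of the kidney were compared with members of the spleen of the same mouse, and 573 of 5951 genes (9.63%) passed, 384 higher and 189 lower in the kidney (356 without the mouse block and 285 without WT1). Classes were not equally mixed, since both cells were 127 of 270 kidney and 76 of 345 spleen members. Klrc1 was at 327, 162, 281, 220 and 200 CPM in the kidney and at 18.0, 22.0, 78.6, 5.75 and 89.0 CPM in the spleen, with no overlap (2.55 ± 0.33, adjusted p = 7.66e-05). Klrd1 was at 146, 126, 166, 56.7 and 71.1 against 12.0, 38.1, 23.8, 0 and 44.5 CPM (2.34 ± 0.33, adjusted p = 0.000187), and Klre1 at 25.3, 10.1, 40.4, 18.9 and 32.3 against 0, 1.46, 3.66, 0 and 0 CPM (3.79 ± 0.75). Of 5 lectin receptors 4 rose and of 13 cytotoxic genes 6. Klre1, at 0 to 3.66 CPM in spleen members, passed the filter on low counts mainly through kidney sums. It could thus hardly be called lower in the kidney, and the receptor count is a description only. Ccl5 was at 12998, 11634, 15089, 26521 and 14263 CPM in the kidney and at 1253, 6385, 2861, 17024 and 16811 CPM in the spleen, higher in the kidney in 4 of 5 mice (1.37 ± 0.35, adjusted p = 0.0183). Gzmb (1.29 ± 0.37) and Nkg7 (0.81 ± 0.16) were higher too. Runx3 was higher in 5 of 5 mice (0.73 ± 0.17, adjusted p = 0.00921).

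Crem, a regulator of the cyclic AMP response, was at 206, 237, 331, 120 and 168 CPM in kidney members and at 30.0, 38.1, 32.9, 11.5 and 9.89 CPM in spleen members (3.04 ± 0.22, adjusted p = 3.39e-07). The organs were far apart in each mouse. The AP-1 gene Fosl2 (3.22 ± 0.24), Ier5l (3.03 ± 0.21) and Ramp3, a partner of calcitonin family receptors (3.29 ± 0.36), rose in the kidney alongside. Of 11 naive and recirculation genes 4 fell, among them Lef1 (−1.02 ± 0.26), and of 10 cell cycle genes 4 fell, or 0 without WT1. Helper genes split, Icos (1.37 ± 0.16) and Pdcd1 (1.33 ± 0.26) rising and Il21 (−2.82 ± 0.58), Cxcr5 (−1.57 ± 0.39), Izumo1r (−1.46 ± 0.21) and Foxp3 (−1.02 ± 0.28) falling. Cd4 did not differ (−0.20 ± 0.21, adjusted p = 0.600).

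**Figure D4:**
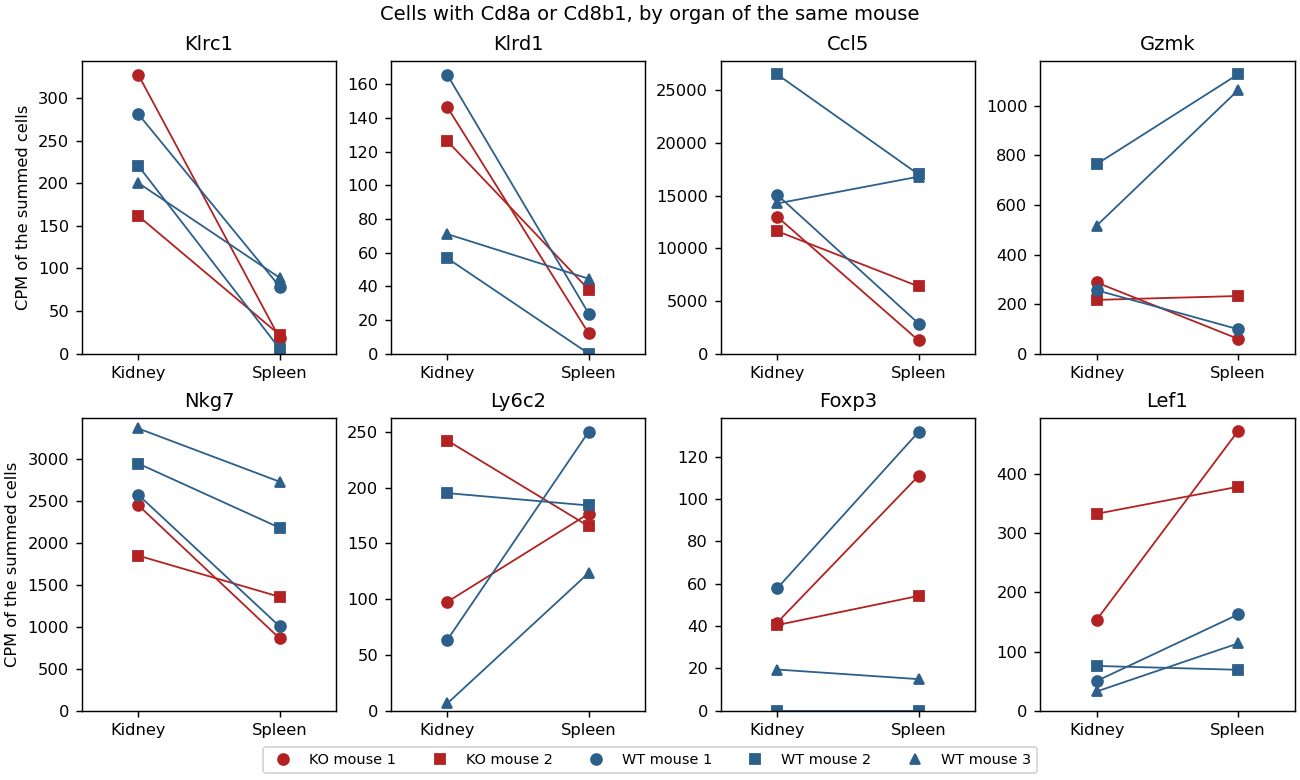
Level of 8 genes (CPM of the summed members of a mouse) in kidney and spleen, with KO mice in red, WT mice in blue and a line for each mouse. Klrc1 falls along each line, from 162 to 327 CPM in the kidney to 5.75 to 89.0 CPM in the spleen, whereas Ccl5 of WT3 rises.

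Between genotypes, members themselves gave few calls, with 2 against 3 mice. On simulated counts the spleen form of this comparison recovered 19% of 2-fold and 77% of 4-fold changes. Few calls thus do not show that members of the genotypes are alike. In the kidney 1 of 5083 genes (0.0197%) passed, Igfbp4, a gene of naive T cells, at 94.4 and 222 CPM in the KO mice and at 1.87, 0 and 0 CPM in the WT mice (6.82 ± 0.72, adjusted p = 0.00534). With WT members at or near 0, Igfbp4 passed the filter on low counts mainly through the KO sums. It could hardly be called lower in KO, and the size of its difference depends on the prior count. The same gene in neither cells was at 292, 266, 23.3, 6.36 and 37.2 CPM, so the genotypes were apart there as well. Cd4 of kidney members was 143 ± 14.5 CPM in KO (SD, n = 2) and 289 ± 41.0 CPM in WT mice (n = 3), a difference that did not pass (−1.04 ± 0.24, adjusted p = 0.445). By mouse 38.1%, 37.1%, 68.0%, 66.7% and 56.0% of these cells held a Cd4 UMI. The classes were not equally mixed here either, since both cells were 76 of 119 KO and 51 of 151 WT kidney members, and neither cells held a Cd4 UMI in 55.9% (KO) and 64.7% (WT) of cells. The differences of Ccr7 (590 ± 179 against 165 ± 87.7 CPM) and Lef1 (239 ± 123 against 52.1 ± 21.4 CPM) did not pass either. Without WT1 12 genes passed and without WT3 0. In the spleen 0 of 5739 genes (0%) passed in edgeR, 385 had an unadjusted p under 0.05, and DESeq2 called 12. Without WT1 9 passed in edgeR.

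The gap between members and neither cells differed between the genotypes for more genes. Members were not the same mix of classes in both genotypes. Both cells were 76 of 119 KO and 51 of 151 WT kidney members, and 57 of 204 KO and 19 of 141 WT spleen members. The part of this mix in the interactions was not tested. The interaction passed for 22 of 7477 genes in the kidney (0.294%, 16 of them with a larger positive difference in KO) and for 49 of 10928 in the spleen (0.448%, 39 of them). Cytotoxic genes were 7 of the 13 tested in the kidney, 6 positive and Xcl1 negative, and 8 of 14 in the spleen, all positive. Gzmk, granzyme K, was at 57.6, 118, 192, 1201 and 1062 CPM in kidney neither cells and at 278, 208, 249, 747 and 499 CPM in members. It was thus higher in members of the 2 KO mice and lower in those of WT2 and WT3 (interaction 2.16 ± 0.35, adjusted p = 0.00205). In the spleen Gzmk was at 33.0, 64.8, 215, 1119 and 1050 CPM in neither cells and at 59.5, 235, 100, 1102 and 1016 CPM in members (1.86 ± 0.27, adjusted p = 1.4e-05). Nkg7 was at 477, 454, 1108, 2234 and 2031 against 2370, 1770, 2502, 2877 and 3252 CPM in the kidney (1.41 ± 0.21, adjusted p = 0.0011). Its spleen values were 316, 362, 1133, 2379 and 2357 against 854, 1373, 1016, 2131 and 2609 CPM (1.75 ± 0.17, adjusted p = 1.39e-09). The members' levels of the genotypes lay closer to each other than those of the neither cells, which were lowest in the KO mice. Ccl5 of the kidney was at 1338, 2958, 5497, 15660 and 7641 CPM in neither cells and at 12577, 11144, 14667, 25893 and 13782 CPM in members (1.58 ± 0.25, adjusted p = 0.00134).

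Eomes, a factor of effector and memory T cells, was at 41.5, 65.1, 109, 438 and 501 CPM in kidney neither cells and at 191, 169, 146, 424 and 387 CPM in members (1.89 ± 0.29, adjusted p = 0.0011). WT1 stood nearer the KO mice than WT2 and WT3. Klrd1 of the kidney passed as well (9.68, 12.1, 66.0, 15.4 and 11.7 against 142, 121, 161, 55.3 and 68.7 CPM, 2.07 ± 0.41), while Klrc1 did not (0.13 ± 0.54, adjusted p = 0.994). In the spleen Ccl4 gave the smallest p, at 58.4, 140, 558, 2231 and 1871 CPM in neither cells and at 220, 382, 305, 1366 and 1309 CPM in members (2.33 ± 0.19, adjusted p = 2.16e-11). It was higher in members of both KO mice and lower in those of all 3 WT mice. The kidney count depended on single mice, with 1 call without KO1 and 84 without KO2, and the spleen gave 79 without KO1. Without cells over 10000 UMIs 6 kidney genes passed, and DESeq2 gave 6 in the kidney and 11 in the spleen.

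**Figure D5:**
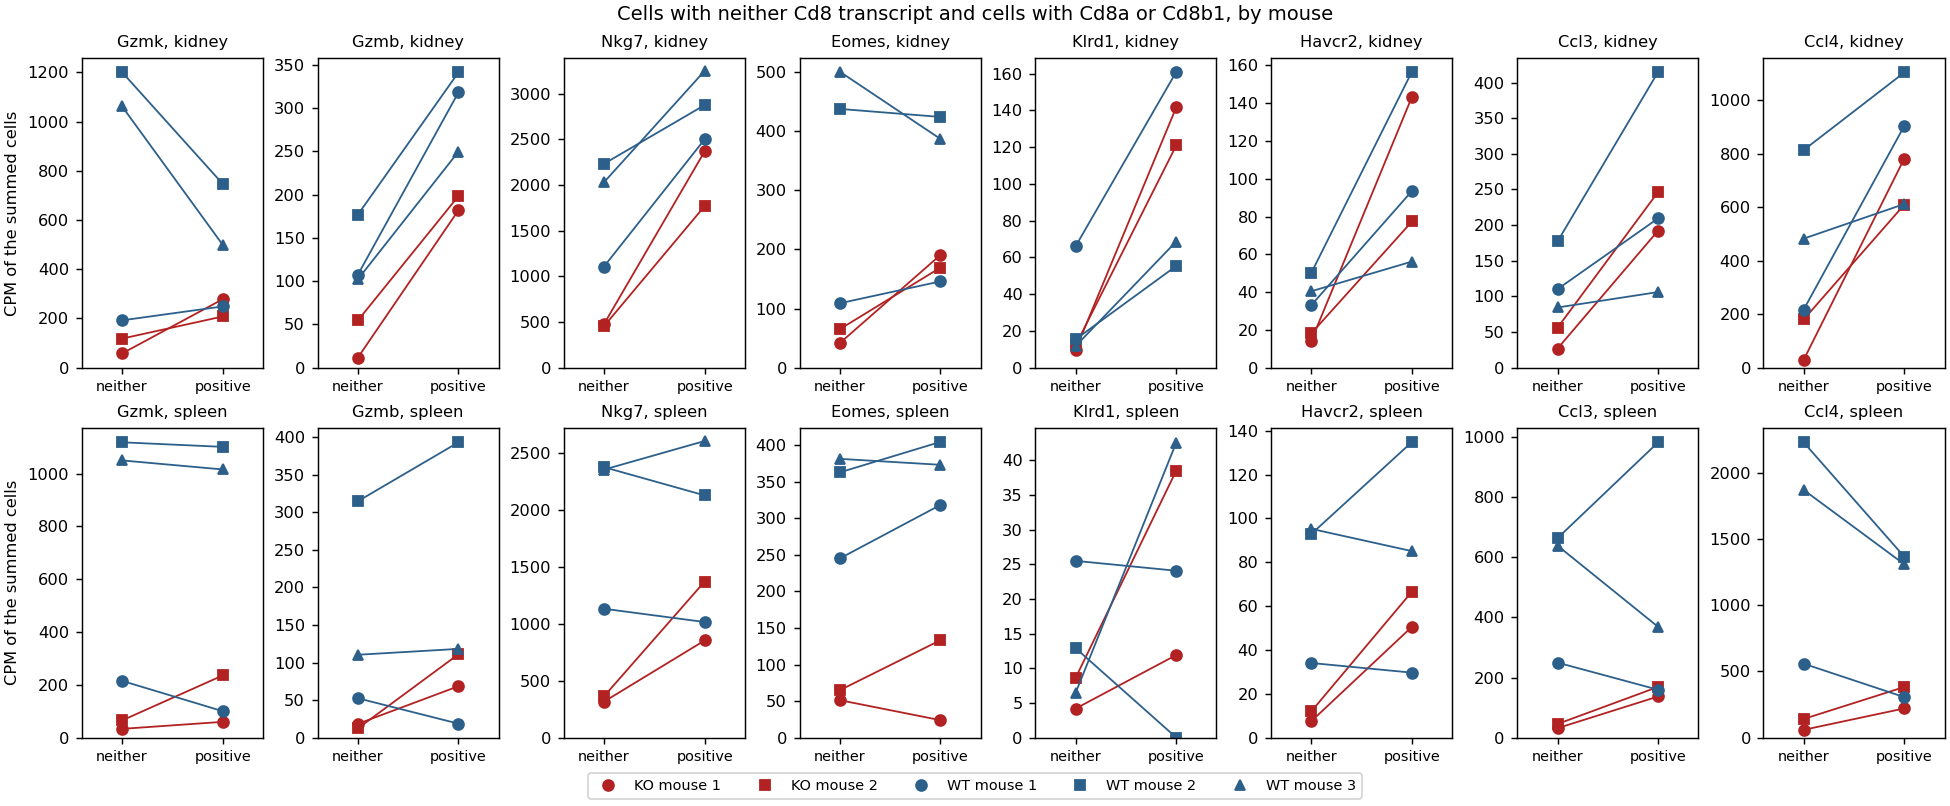
Level of 8 genes (CPM of the summed cells of a mouse) in neither cells and in members of kidney (top) and spleen (bottom), with KO mice in red, WT mice in blue and a line for each mouse. The red lines of Gzmk rise from 57.6 and 118 to 278 and 208 CPM in the kidney, while those of WT2 and WT3 fall from 1201 and 1062 to 747 and 499 CPM.

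Foxp3 cells of the kidney were often members. Of the 178 kidney cells with a Foxp3 UMI 14.0% (9.70 to 19.9) were members and 12 were both cells, against 4.61% of 1041 spleen cells with Foxp3, of which 2 were both cells. The kidney Foxp3 cells had a median of 5815.5 UMIs and the spleen ones 3509. Those 12 had a median of 12293 UMIs, 9 were over 10000 and 11 carried Cd4. By comparison the 153 kidney cells with Foxp3 and no Cd8 transcript had a median of 5055 UMIs, and of the 115 kidney both cells without Foxp3, with a median of 5858, 40 carried Cd4. The part of depth in the kidney share was not tested.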

How the data were processed

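The authors deposited UMI counts per gene and cell in 1 matrix for each organ, together with counts of 10 antibody tags, per the file headers. Cell Ranger 7.1.0 and Seurat 5.0.1 are named in the submitters' processing notes, and whether doublets were removed is not given in the sources used here. Cells were assigned to mice by the barcode block and its leading tag, over the 10 first-day blocks of 18, told from the others by the presence of tags 9 and 10, which only the first day used. Of the other 8 blocks, 6 hold the same 2399 barcodes and 2 hold 2148 and 981 of them, under several mice, and none was used. Cells needed their block's tag as the leading one, 200 genes and under 10% mitochondrial UMIs, which left 13337 of 13368. UMIs were summed per mouse, organ and class (at least 10 cells) and tested with edgeR 4.0.16 (quasi-likelihood, TMM, filterByExpr, mouse as a block), with Cd8a and Cd8b1 left out of the tests. The mouse was the block because the classes compared come from the same animal. DESeq2 1.42.0 was an alternative, and the scripts were tested on simulated data. Levels are CPM after TMM scaling. They differ slightly between the fit of 2 classes, that of 4 classes and that of members alone, each scaled on its own. Errors of log2 differences are standard errors. Shares were compared with exact permutation tests over mice. Genes were named as the 10 largest called changes in each direction that held in every mouse, leaving out receptor segments and numbered genes, plus 21 genes given in every fit. Some genes that this rule names are not reported here. List members named beyond these were chosen after their values were seen. The members and lists were chosen with earlier results of these data known, so a list's count is no independent support. A gene low in neither cells could pass the filter on low counts only through sums of cells with a Cd8 transcript. Such a gene could hardly be called lower in those cells, in either organ. The comparison of both with Cd8b1-only cells, the class shares, the filter on other-cell UMIs and the depth alternatives for the classes were added after the data were seen. Cd8a-only cells reached 10 cells in 1 mouse per organ and were not tested.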

Additional observations from a re-analysis of the deposited data

Results flagged for a closer look

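The difference between members and neither cells differed between kidney and spleen for 6 genes by the interaction test (edgeR, adjusted p under 0.05), of which 5 are named genes. The log2 differences were 1.63 for Ier5l, 1.34 for Cd7, 1.27 for Lag3 and −1.57 for Ly6c2. Filip1 gave 6.38, a value that depends on the prior count, since its spleen members were at 0 CPM in 4 of 5 mice and its kidney members at 22.7, 19.3, 29.9, 15.4 and 0 CPM.

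Between the genotypes the difference differed for 22 kidney genes, and without cells over 10000 UMIs 6 passed. Named positive values, a larger difference in KO mice, were 2.77 for Wdr95, 2.34 for Setbp1, 2.16 for Gzmk, 2.08 for Osr2, 2.07 for Klrd1, 1.97 for Entpd1, 1.89 for Eomes and 1.72 for Gzmb. Dapl1, a gene of naive T cells, gave 9.06 with kidney members at 47.2, 43.5, 0, 0 and 0 CPM, so this value too depends on the prior count. Negative values were −2.07 for Xcl1, −1.78 for Zeb2, −1.33 for the heat shock gene Hspa1b, −1.18 for Socs1 and −1.17 for Fos. Xcl1, a chemokine of cytotoxic cells, was at 176, 141, 55.2, 185 and 211 CPM in kidney neither cells and at 45.5, 67.7, 107, 314 and 112 CPM in members, lower in members of both KO mice and of WT3.

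In the spleen the difference differed for 49 genes. Named positive values were 3.52 for Mettl7a1, 2.80 for Osr2, 2.78 for Gzmb, 2.62 for Ctla2a, 2.50 for Havcr2, 2.33 for Ccl4 and 2.24 for Ccl3. Gzmb stood at 18.2, 12.1, 52.4, 315 and 110 CPM in neither cells and at 68.4, 111, 18.5, 394 and 118 CPM in members. Gcg (13.17) and Iglc2 (7.05) rest on 1 mouse each, Gcg being at 5.92 CPM in the members of KO2 and at 0 in the others, and Iglc2 at 38.7 CPM in those of KO1, whose spleen both cells include the cell with Siglech. Negative values were −9.84 for Sorcs1, −2.80 for Epcam and −2.39 for Ptprk. Sorcs1 was at 0, 0, 53.7, 45.0 and 0 CPM in members. Values of genes at 0 in some sums depend on the prior count.

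Data of the second processing day were not compared here. In its largest block 378 of 2399 cells, 15.8% (95% Wilson interval 14.4 to 17.3), held a Cd8a or Cd8b1 UMI, where a count of 0 would allow 0.125%. The same cells stand under several mice there, so they have no genotype.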

How the results depend on the processing

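The share differences kept their direction under each alternative run (8.14 to 12.4 points between genotypes in the kidney, 2.10 to 6.68 in the spleen and 2.57 to 4.20 between organs when 1 mouse was left out). The Cd4 share difference of all kidney members was −9.84 to −4.31 points, and that of spleen members, 0.550, turned to −16.0 at 2 or more Cd8 UMIs, −6.04 in thinned cells, −0.370 without cells over 10000 UMIs and −0.670 without WT2 (up to 1.42 without another mouse). Counts of calls moved more. Members against neither cells (513 in the kidney, 190 in the spleen) gave 326 and 122 in DESeq2, 862 and 387 without the filter on low counts, 16 and 0 with no replicate block for the mouse, 211 and 40 in thinned cells and 229 and 37 without cells over 10000 UMIs. The spleen gave 79 without cells of 10 or more other-cell UMIs, and leaving out 1 mouse gave 218 to 448 and 117 to 184. The organ difference (6) gave 17 in DESeq2, 110 without the filter, 3 thinned, 0 without deep cells and 1 to 10 without 1 mouse. The genotype differences (22 and 49) gave 6 and 11 in DESeq2 and 65 and 80 without the filter, the kidney 6 without deep cells and the spleen 82 at 2 or more UMIs, with 1 to 84 and 38 to 79 without 1 mouse. At 2 or more UMIs spleen WT2 had 2 members and dropped out. For Sorcs1, found in spleen members of WT1 and WT2 only, the spleen difference then reversed to 0.82. KO against WT members (1 and 0) gave 5 and 12 in DESeq2 and 52 and 121 without the filter, the spleen 1 at 20 cells a sum, and 0 to 12 and 1 to 9 without 1 mouse. Kidney against spleen members (573) gave 264 in DESeq2, 356 with no block and 285 to 484 without 1 mouse. Cd8b1-only cells of the kidney (2) gave 1 in DESeq2, 73 without the filter, 5 at 20 cells a sum, 0 with no block, 0 without other-cell UMIs and 1 to 5 without 1 mouse. Those of the spleen (127) gave 265 without the filter, 219 at 20 cells a sum, 0 with no block, 48 without other-cell UMIs, 4 thinned, 4 without deep cells and 57 to 155 without 1 mouse. Both cells against neither (663 and 106) gave 90 and 1 with no block, the kidney 253 thinned and 283 without deep cells, the spleen 269 without the filter, with 239 to 659 and 41 to 99 without 1 mouse. Both against Cd8b1-only cells (96 and 55) gave 199 and 215 without the filter and 0 and 0 with no block, the kidney 33 thinned and 25 without deep cells, with 32 to 131 and 29 to 55 without 1 mouse. With no filter more genes are tested, and with thinning or fewer cells fewer. Without deep cells the kidney fits of the 4 classes also lost WT3. For the other alternatives the cause was not tested. In kidney both cells the calls of Cd4, Klrc1, Prf1 and Havcr2 held under each alternative run. Those of Klrd1, Klrk1 and Glp1r held where tested, which leaves out thinned cells for all 3 and the fit without the block for Glp1r. Spleen both cells could not be fitted at 20 cells a sum. Depth limits the classes, since 328 of 615 members rest on 1 UMI. Numbers of mice limit the tests, with 3 for spleen both cells and 2 KO mice for each statement on genotype.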
